A study of Mus musculus with 8 samples.

Results

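Collagen genes were defined as the rows of the deposited gene table whose symbol reads Col, a number, a, and a number, with Col17a1 left out. The rule found 43 genes of 34745 in the table. They were grouped by textbook class into 11 fibrillar, 9 basement membrane, 7 beaded and 9 FACIT genes, and 7 others. FACIT stands for collagens that sit on fibrils and whose helix is interrupted. The libraries are RNA sequencing of skin from 8 mice aged 16 weeks, 4 labelled NcstnΔKC and 4 labelled normal.

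NcstnΔKC mice carried floxed Ncstn alleles and 1 copy of Krt14-CreER (Ncstn flx/flx; Krt14 CreER+/-). From 8 weeks of age they were given tamoxifen by gavage, 20 mg per kg body weight daily for 5 days and then once in 10 days. Ncstn encodes nicastrin, a subunit of the membrane protease γ-secretase. The Krt14 promoter drives the recombinase in keratinocytes of the basal epidermis and the outer hair follicle, so dermal cells, the main makers of collagen, were not its target. Normal mice received corn oil. The protocol gives them the same floxed alleles and CreER, whereas their genotype label reads wildtype. Every NcstnΔKC mouse and no normal mouse was given tamoxifen, so the drug and the deletion cannot be told apart here. Lesional skin was the tissue named for both groups. The labels do not say whether mice shared a litter or a batch, so p-values measure the spread between these mice alone.

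A collagen molecule is made of chains wound around each other into a stiff helix, and each gene here encodes 1 chain. In skin, dermal fibroblasts secrete the fibrillar collagens types I, III and V, which give the dermis its strength. Basement membrane collagens lie beneath the epidermis and around vessels, nerves, muscle fibres and fat cells. Beaded filaments of type VI link the cell surface to the matrix, and FACIT collagens coat and space the fibrils.

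Total counts were 11881506 to 12893174 per NcstnΔKC library and 5835422 to 8663753 per normal library. All mice are labelled male, but replicates 3 and 4 of each group held 36905 to 37109 counts of Xist in NcstnΔKC skin and 22304 to 24421 in normal skin, with at most 3 counts of 4 Y-linked genes. Replicates 1 and 2 held at most 9 counts of Xist and at least 886 of the Y-linked genes. Xist is the RNA that silences an X chromosome in female cells. For some genes results are therefore also given within the libraries with Xist and within those without. Anything else that replicates 3 and 4 share cannot be told apart from Xist status. The second principal component of all genes, 13.54% of the variance, set NcstnΔKC replicate 1 apart, and results that rest on it are given without it as well. Ncstn itself stood at 66.8, 50.2, 57.8 and 56.1 CPM (counts brought to a common library size) in NcstnΔKC replicates 1 to 4, against 60.7, 61.9, 61.3 and 58.4 CPM in normal replicates 1 to 4 (log2 fold change -0.07 ± 0.12 (SE), adjusted p = 0.663, edgeR). The deleted exons are not given in the sources used here and the deletion is aimed at 1 cell type, so this whole-gene value does not check the labels.

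The question put to the collagen genes was which of them differed between NcstnΔKC and normal skin. Of the 33 with enough counts to test, 5 were higher and 11 lower in NcstnΔKC skin (edgeR quasi-likelihood test, adjusted p under 0.05 over all 15684 genes tested). Together these are 48.5% of the collagen genes tested, while 44.1% of all genes tested passed the same threshold, 21.4% higher and 22.7% lower. The share of collagen genes called is therefore close to the background. With Xist status as a covariate 4 were higher and 12 lower: Col18a1 (adjusted p = 0.0536, edgeR) and Col13a1 (0.0525) no longer passed, and Col4a6 (0.0344) and Col11a1 (0.0345) did. The split depended on scaling: with total counts 6 were higher and 8 lower, with basal keratinocyte genes 1 and 19, and with fibroblast markers 8 and 6 (edgeR). The higher genes were Col12a1, Col6a5, Col7a1, Col23a1 and Col18a1. The lower ones were Col4a3, Col6a6, Col4a4, Col8a2, Col14a1, Col15a1, Col20a1, Col13a1, Col4a5, Col24a1 and Col16a1. The median log2 fold change of the collagen genes was -0.57, beside -0.02 for all genes tested. Only Col7a1 was higher in NcstnΔKC skin with no overlap between the groups, against 20.9% of all genes, and 9 were lower with no overlap, against 20.7%. Both directions together hold 41.6% of all genes.

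**Figure D1:**
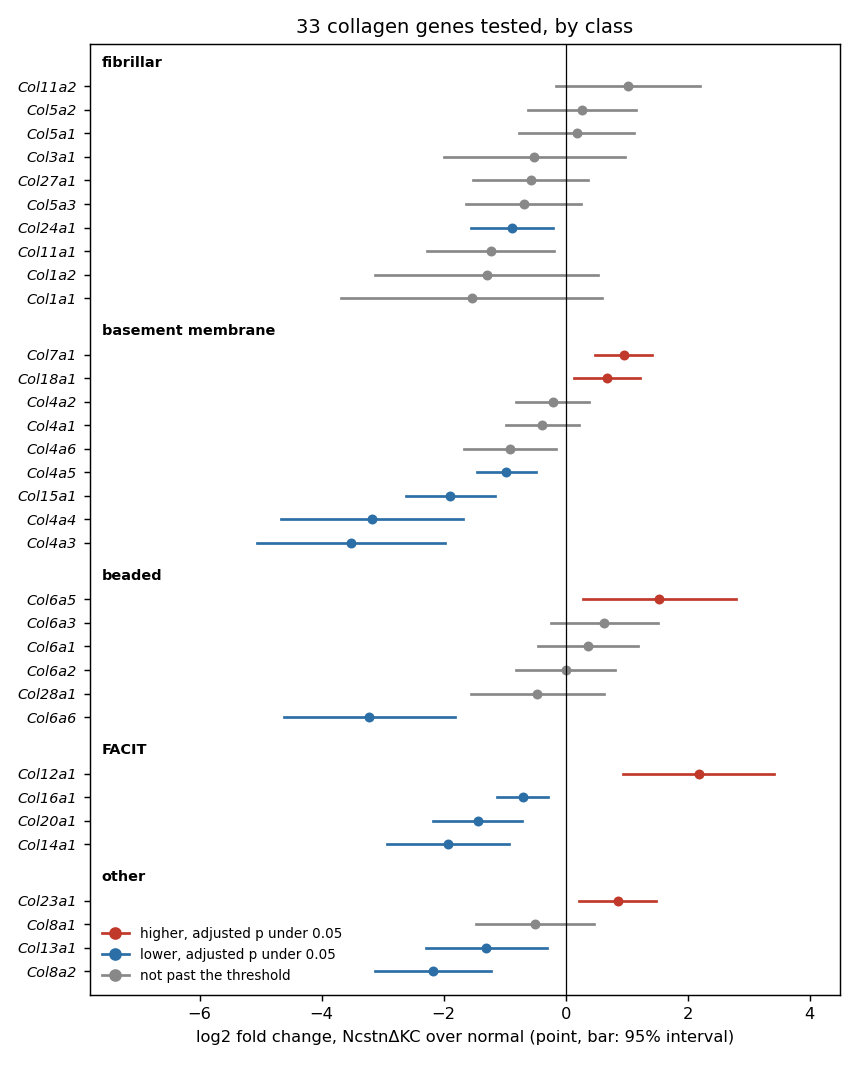
Log2 fold change of NcstnΔKC over normal skin for the 33 collagen genes tested, by class, as points with 95% intervals, coloured by the call at an adjusted p of 0.05. The 5 genes called higher and 11 called lower are spread over the classes, and the widest intervals belong to Col1a1 and Col1a2.

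By class, of 10 fibrillar genes tested, 0 were called higher and 1 lower, and 9 did not pass. Among 9 basement membrane genes, 2 were higher and 4 lower. Of 6 beaded genes, 1 was higher and 1 lower, and of 4 FACIT genes, 1 was higher and 3 lower. The other class had 1 higher and 2 lower of 4. Over all genes tested, 21.4% were called higher and 22.7% lower, and no class was tested against these shares. The class medians were -0.63 for fibrillar, -0.92 for basement membrane, 0.18 for beaded and -1.07 for FACIT genes on the log2 scale.

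Together, the 43 genes took 0.545, 1.37, 1.74 and 1.91% of all counts in NcstnΔKC replicates 1 to 4, against 3.35, 3.11, 0.467 and 0.622% in normal replicates 1 to 4. Normal replicates 1 and 2, which lack Xist, stood above every NcstnΔKC library, and normal replicate 3 stood below every one. Fibrillar genes made up most of this: 0.383, 1.02, 1.25 and 1.39% in NcstnΔKC skin and 3.11, 2.84, 0.280 and 0.350% in normal skin, in the same order of replicates. Basement membrane genes stayed within 0.0864 to 0.143% in NcstnΔKC skin and 0.0779 to 0.119% in normal skin. In whole tissue, fewer cells of a type and less RNA per cell cannot be told apart.

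**Figure D2:**
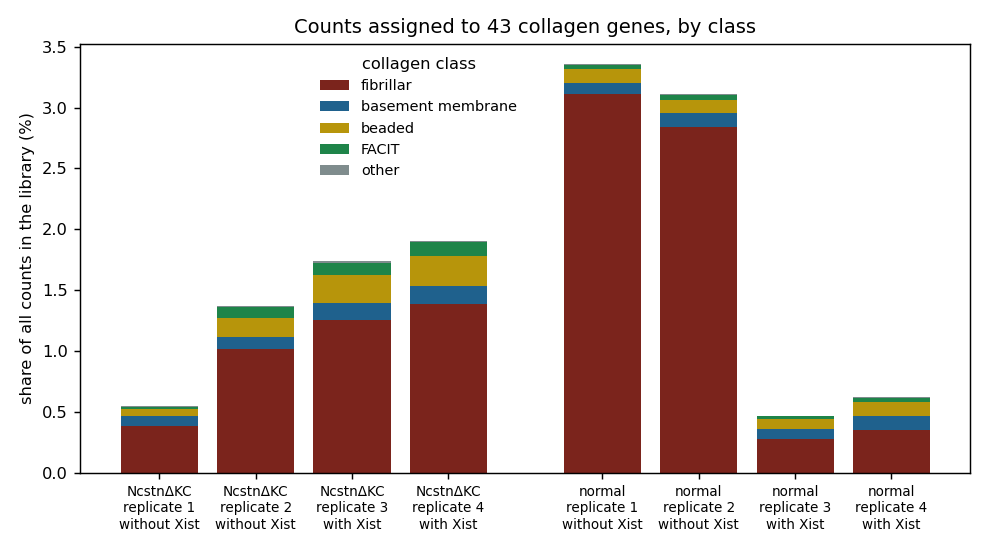
Share of all counts in each library assigned to collagen genes, in percent, stacked by class, with the 4 NcstnΔKC libraries on the left and the 4 normal libraries on the right. Normal replicates 1 and 2 reach 3.35% and 3.11%, and normal replicates 3 and 4 lie at 0.467% and 0.622%.

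Fibrillar collagens formed the most abundant class. Col1a1 and Col1a2 encode the α1 and α2 chains of type I collagen, the main fibril of dermis, and Col3a1 encodes type III, which shares its fibrils. Col1a1 (chr11:94936224-94953042, mm10) was at 1174.5, 2573, 3429 and 3643 CPM in NcstnΔKC replicates 1 to 4, against 14467, 15360, 748 and 885 CPM in normal replicates 1 to 4. Col1a2 (chr6:4504814-4541544) followed with 880.1, 1885, 2183 and 2254 CPM in NcstnΔKC skin, against 7709.5, 8508, 662 and 805 CPM in normal skin. Col3a1 (chr1:45311538-45349706) had 1395, 3517, 4359 and 5041 CPM in NcstnΔKC skin, against 8735, 8571.5, 1512.5 and 1602 CPM in normal skin. For all 3 genes the 4 NcstnΔKC libraries lay between the pairs of normal libraries, except that NcstnΔKC replicate 1 of Col3a1 lay below all of them. The normal pair without Xist averaged 18.3 times the pair with Xist for Col1a1, 11.1 times for Col1a2 and 5.56 times for Col3a1.

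In the reported fit over all 8 libraries these genes did not pass the threshold. The log2 fold change was -1.54 ± 0.95 (SE), adjusted p = 0.215 for Col1a1, with a 95% interval of -3.68 to 0.60. For Col1a2 it was -1.30 ± 0.81 (SE), adjusted p = 0.22, and for Col3a1 -0.51 ± 0.65 (SE), adjusted p = 0.55. Each of these intervals spans 0 and is wide, so the comparison fixes neither a direction nor its absence. The size depended on the fit: with Xist status as a covariate it was -0.44 for Col1a1 and -0.48 for Col1a2, with voom -0.52 and -0.54, and neither gene passed in those fits (lowest adjusted p 0.639).

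Type V collagen, which sets fibril diameter from inside the fibril, followed the same order in part. Col5a2 was at 205, 409, 509.8 and 557 CPM in NcstnΔKC replicates 1 to 4, against 493.5, 484, 204 and 212 CPM in normal replicates 1 to 4. Col5a1 (chr2:27886425-28039514) had 121, 316, 409 and 432 CPM in NcstnΔKC skin, against 407, 359, 175 and 186 CPM in normal skin. In both genes normal replicates 1 and 2 were again above normal replicates 3 and 4, by 2.35 and 2.13 times. Col5a3, a minor type V chain, ran the other way in normal skin, with 25.4, 41.9, 69.9 and 70.5 CPM in NcstnΔKC skin, against 33.7, 83.9, 103 and 114 CPM in normal skin. Their log2 fold changes were 0.27 ± 0.39 (SE), adjusted p = 0.6 for Col5a2, 0.18 ± 0.42 (SE), adjusted p = 0.744 for Col5a1, and -0.69 ± 0.42 (SE), adjusted p = 0.208 for Col5a3.

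**Figure D3:**
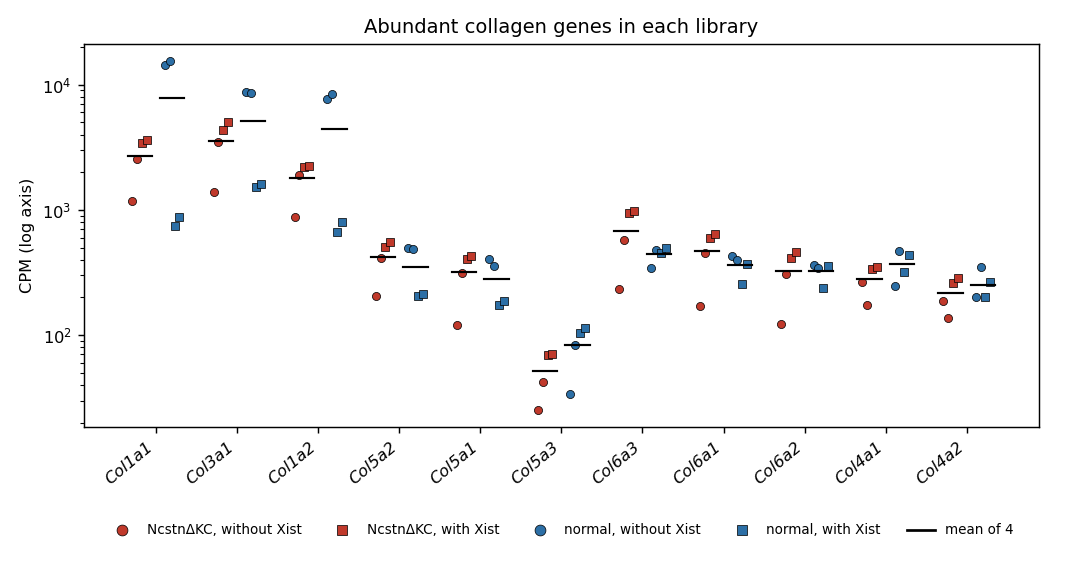
CPM (log axis) of the most abundant fibrillar, beaded and basement membrane collagen genes in each library, NcstnΔKC in red on the left and normal in blue on the right of each gene, with circles for libraries without Xist, squares for libraries with Xist and a bar at the mean of 4. Normal libraries split into a high and a low pair for Col1a1, Col3a1, Col1a2, Col5a2 and Col5a1, and NcstnΔKC replicate 1 is the lowest red circle for the fibrillar and type VI genes.

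For Col1a1, Col1a2, Col3a1, Col5a1 and Col5a2 the group difference had opposite signs in the 2 Xist classes. Col5a3 was lower in both, at -0.59 with Xist (adjusted p = 0.00681, edgeR) and -0.80 without (adjusted p = 0.377). In the libraries with Xist, Col1a1 was higher in NcstnΔKC skin by a log2 fold change of 2.15 (adjusted p = 0.000272, edgeR, 2 against 2), and Col3a1 by 1.63 (adjusted p = 0.000586). Col1a2 gave 1.63, Col5a2 1.40 and Col5a1 1.26, with adjusted p of 0.000563, 0.000386 and 0.000465 by the same edgeR fit. In that fit 26.3% of all genes were called higher and 25.4% lower. Without Xist the log2 fold changes were -2.99 for Col1a1, -2.55 for Col1a2, -1.81 for Col3a1, -0.81 for Col5a1 and -0.67 for Col5a2. None of these passed the threshold in the edgeR fit without Xist, where the adjusted p was 0.0835 for Col1a1. Of 15668 genes of any kind in that fit, 3 were called higher (0.0191%) and 1 lower (0.00638%).

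The difference between the Xist classes was tested as an interaction in edgeR. For Col1a1 it was 5.11 ± 0.58 (SE) on the log2 scale, with an unadjusted p of 3.9e-05 and an adjusted p of 0.102. For Col1a2 it was 4.15 ± 0.54 (adjusted p = 0.225). No gene of the whole table passed at the adjusted threshold of this edgeR test, and 917 (5.85%) had an unadjusted p under 0.05. Of the 33 collagen genes, 10 were among those 917. By their values alone, 6 collagen genes were higher in NcstnΔKC skin with Xist and lower without it, with no overlap in either class: Col1a1, Col3a1, Col1a2, Col5a2, Col5a1 and Col6a2. They are 18.2% of the collagen genes tested, and 1.28% of all genes tested showed that pattern. The 6 are not separate observations, since most of them varied together within the groups. Deviations from the group mean, on log2(CPM + 0.5), correlated with those of Col1a1 at 0.999 for Col1a2, 0.974 for Col3a1 and 0.904 for Col5a2. The same correlation was 0.802 for Col5a1 and 0.461 for Col6a2.

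**Figure D4:**
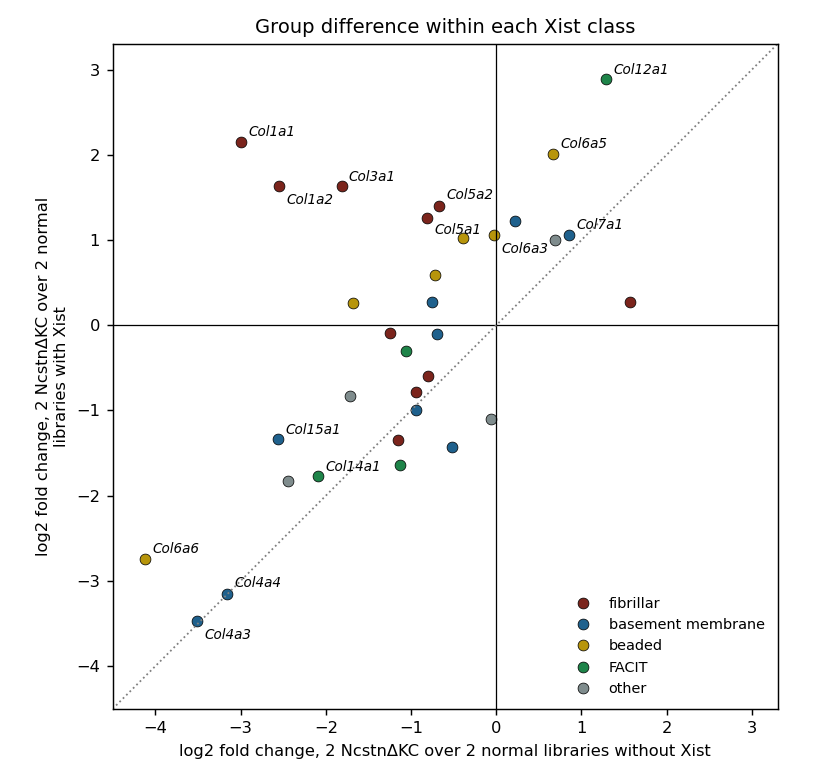
Log2 fold change of NcstnΔKC over normal for each of the 33 collagen genes, from 2 against 2 libraries without Xist (horizontal axis) and with Xist (vertical axis), with the line of equal change dotted. Col1a1, Col1a2, Col3a1, Col5a2 and Col5a1 lie in the upper left, while Col4a3, Col4a4 and Col14a1 lie near the dotted line.

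Marker genes of other cells were measured beside these values. Summed CPM of 14 fibroblast markers was 1689 to 1864 in NcstnΔKC skin, against 2804 to 3462 in normal skin. Of the 14, 2 were higher and 6 lower, beside 21.4% higher and 22.7% lower of all genes tested. Within normal skin the fibroblast sum was 2895, 2843.5, 2804 and 3462 in replicates 1 to 4, without the high and low pairs of Col1a1. Summed CPM of 9 skeletal muscle markers was 26640, 3829, 7790.3 and 8529 in NcstnΔKC replicates 1 to 4, against 19693, 101150, 167090 and 120900 in normal replicates 1 to 4, all 9 lower. In muscle markers normal replicates 1 and 2 both lay below normal replicates 3 and 4, the reverse of their order in Col1a1. Normal replicates 1 and 2 were alike in Col1a1 and lay far apart in muscle markers. The part of fibroblasts or of muscle in the collagen result was not tested.

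The bases before the annotated start of Col3a1 and Col5a1 are shown because their levels split the normal libraries in the same way. Col1a1 and Col5a2 split likewise and had no window in the RefSeq set used. RefSeq (GRCm38.p6) windows of 250 bases were searched for the GC box GGGCGG, the CCAAT box CCAAT and the TATA box TATAAA on both strands, and matches are in capitals. Col3a1 (chr1:45311288-45311537, plus strand) and Col5a1 (chr2:27886175-27886424, plus strand) read 5′ to 3′:
Col3a1: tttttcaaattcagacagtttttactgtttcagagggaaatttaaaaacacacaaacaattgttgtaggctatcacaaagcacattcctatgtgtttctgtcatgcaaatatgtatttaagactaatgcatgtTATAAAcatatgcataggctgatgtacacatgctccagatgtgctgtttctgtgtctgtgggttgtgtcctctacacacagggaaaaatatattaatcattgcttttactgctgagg
Col5a1: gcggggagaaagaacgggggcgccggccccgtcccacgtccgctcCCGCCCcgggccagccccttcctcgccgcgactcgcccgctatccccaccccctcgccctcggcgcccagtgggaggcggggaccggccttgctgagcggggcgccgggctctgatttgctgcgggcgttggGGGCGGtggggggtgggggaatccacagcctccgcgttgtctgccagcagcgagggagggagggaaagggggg
The Col3a1 window held a TATA box match and no GC box, and the Col5a1 window held GC boxes alone. The Col1a2 window, not printed, overlapped annotated exons and held GC box and CCAAT box matches. Over all 32851 RefSeq windows of this kind, 32.7% held a GC box, 33.8% a CCAAT box and 12.4% a TATA box. The 34 collagen genes in the table had 37 windows, of which 22 held a GC box, 12 a CCAAT box and 4 a TATA box. Such a match is a description of letters and does not show that a factor binds.

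Of the remaining fibrillar genes, Col24a1 alone passed the threshold. It encodes a fibrillar chain best known from bone and cornea, and was at 2.35, 3.83, 5.12 and 4.37 CPM in NcstnΔKC replicates 1 to 4, against 7.29, 4.64, 8.47 and 8.34 CPM in normal replicates 1 to 4. The groups overlapped in that normal replicate 2 lay below NcstnΔKC replicate 3 (log2 fold change -0.88 ± 0.30 (SE), adjusted p = 0.0392, edgeR). The call was lost when any 1 of NcstnΔKC replicates 2 and 4 or normal replicates 1, 3 and 4 was left out, at an adjusted p of up to 0.13. It was also lost with fibroblast marker scaling, at -0.12 (adjusted p = 0.73), with total counts, at -0.54 (adjusted p = 0.194), and in both FPKM fits. Col27a1, a cartilage collagen, was at 2.94 to 12.8 CPM in NcstnΔKC skin and 9.07 to 17.8 CPM in normal skin, and Col11a1, also of cartilage, was at 2.28 to 6.01 CPM in NcstnΔKC skin and 2.96 to 11.9 CPM in normal skin. Neither passed in the reported fit, although Col11a1 did so without NcstnΔKC replicate 2 or without normal replicate 3 (lowest edgeR adjusted p 0.0214). Of 26 alternative fits Col11a1 passed in 7, among them that with Xist status as a covariate (adjusted p = 0.0345, edgeR). Col27a1 passed in 1 of 26, with scaling by basal keratinocyte genes (adjusted p = 0.0114, edgeR). Col11a2 was at 2.21 to 9.23 CPM in NcstnΔKC skin, its top in replicate 1, against 1.21 to 2.82 CPM in normal skin. Col2a1, the main cartilage collagen, had 6, 0, 0 and 0 counts in NcstnΔKC skin and 1, 0, 0 and 3 in normal skin and was too low to test.

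Of the 9 basement membrane collagen genes tested, 2 rose, 4 fell and 3 did not pass. Col7a1 encodes type VII collagen, the anchoring fibril that keratinocytes and fibroblasts make to tie epidermis to dermis. Col7a1 (chr9:108953586-108984875) was at 220.3, 298, 377 and 356 CPM in NcstnΔKC replicates 1 to 4, against 169.6, 118, 171 and 189.9 CPM in normal replicates 1 to 4. Every NcstnΔKC library was above every normal one, with a log2 change between the groups of 0.95 ± 0.21 (SE), adjusted p = 0.00613. The log2 fold change was 1.06 with Xist and 0.85 without, where the adjusted p of 0.179 in edgeR did not get past the threshold. It was 0.25 (adjusted p = 0.295, edgeR) when libraries were scaled by 8 basal keratinocyte genes, of which 7 were higher in NcstnΔKC skin, a scaling that put the median of all genes at -0.70.

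The window before Col7a1 (chr9:108953336-108953585, plus strand) held a CCAAT box on the opposite strand and a GC box, in capitals:
Col7a1: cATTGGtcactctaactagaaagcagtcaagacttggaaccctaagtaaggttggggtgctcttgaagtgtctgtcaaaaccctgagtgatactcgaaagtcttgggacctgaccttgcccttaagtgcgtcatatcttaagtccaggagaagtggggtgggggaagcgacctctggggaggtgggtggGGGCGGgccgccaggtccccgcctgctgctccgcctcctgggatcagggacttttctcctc

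Col18a1, whose product carries endostatin at its end and lies under epithelium and endothelium, was at 109, 156, 177 and 163 CPM in NcstnΔKC skin, against 89.1, 139.5, 66.9 and 82.2 CPM in normal skin. Normal replicate 2 overlapped the NcstnΔKC range (log2 fold change 0.68 ± 0.24 (SE), adjusted p = 0.0453, edgeR). That call was lost without any 1 of NcstnΔKC replicates 2, 3 and 4 or normal replicates 1, 3 and 4, at an adjusted p of up to 0.107, and scaling by basal keratinocyte genes gave -0.06. Within the Xist classes Col18a1 gave 1.22 with Xist (adjusted p = 0.00116, edgeR) and 0.22 without (adjusted p = 0.715). Col15a1, the close relative of Col18a1 found around muscle, vessels and nerves, changed in the opposite direction. It was at 23.1, 40.5, 60.5 and 65.2 CPM in NcstnΔKC skin, against 157, 219, 131 and 195 CPM in normal skin. The groups did not overlap (log2 fold change -1.89 ± 0.32 (SE), adjusted p = 0.00205, edgeR). The log2 fold change of Col15a1 was -1.34 with Xist (adjusted p = 0.00307, edgeR) and -2.56 without (adjusted p = 0.0791).

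Type IV collagen is the network of every basement membrane, built of α1 and α2 chains in most tissues and of the α3 to α6 chains in some. Col4a1, the α1 chain, was at 267, 174, 336 and 347 CPM in NcstnΔKC replicates 1 to 4, against 248, 467, 319 and 436 CPM in normal replicates 1 to 4. Col4a2, the α2 chain, was at 187, 137, 263 and 287 CPM in NcstnΔKC skin, against 201, 347, 200.3 and 266 CPM in normal skin. The groups overlapped in both, with log2 fold changes of -0.39 ± 0.27 (SE), adjusted p = 0.262 for Col4a1 and -0.22 ± 0.27 (SE), adjusted p = 0.536 for Col4a2. The 95% intervals were -0.99 to 0.21 and -0.82 to 0.39 in that order.

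The chains that fell were α3, α4 and α5. Col4a3 (chr1:82586921-82722059) was at 3.78, 0.410, 1.24 and 0.604 CPM in NcstnΔKC replicates 1 to 4, against 20.8, 26.4, 7.91 and 13.3 CPM in normal replicates 1 to 4. Col4a4 (chr1:82448423-82586849) was at 6.55, 1.78, 2.0 and 1.01 CPM in NcstnΔKC skin, against 38.7, 35.5, 8.47 and 19.0 CPM in normal skin. In both genes all NcstnΔKC libraries were below all normal ones, and NcstnΔKC replicate 1 was the highest of its group. Their log2 fold changes were -3.52 ± 0.68 (SE), adjusted p = 0.00366 for Col4a3 and -3.18 ± 0.66 (SE), adjusted p = 0.00508 for Col4a4. Within the Xist classes Col4a3 gave -3.47 with Xist (adjusted p = 0.0016, edgeR) and -3.51 without (adjusted p = 0.13). Col4a4 gave -3.15 with Xist (adjusted p = 0.00454, edgeR) and -3.16 without (adjusted p = 0.0934). Col4a3 shares 5.65% of its exon bases with an antisense gene, C430014B12Rik, which had 110 counts over all libraries beside 504 for Col4a3, and the strand setting of the counting is not given in the sources used here.

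Col4a3 and Col4a4 stand head to head with 71 bases between their annotated transcripts, shown because both fell together. On the Col4a4 strand (chr1:82586850-82586920, minus strand) these bases held no match to the 3 motifs:
Col4a4-Col4a3: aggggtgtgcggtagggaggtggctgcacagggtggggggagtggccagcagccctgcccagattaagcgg
The same arrangement holds for Col4a1 and Col4a2, which overlap by 22 bases, and for Col4a6 and Col4a5, which lie 1308 bases apart.

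Col4a5, on the X chromosome like its neighbour, was at 18.0, 14.3, 12.4 and 10.2 CPM in NcstnΔKC skin, against 31.9, 30.0, 21.5 and 25.0 CPM in normal skin. The groups did not overlap (log2 fold change -0.98 ± 0.21 (SE), adjusted p = 0.00626, edgeR). With scaling by fibroblast markers it was -0.22 (adjusted p = 0.465). Col4a6 was at 26.5, 12.8, 10.0 and 10.3 CPM in NcstnΔKC skin, against 35.5, 20.6, 26.4 and 29.8 CPM in normal skin. NcstnΔKC replicate 1 alone lay in the normal range, and the log2 fold change of -0.92 ± 0.33 (SE), adjusted p = 0.0506 became -1.34 (adjusted p = 0.00149, edgeR) without that library. Per length, in FPKM (the deposited level scaled for gene length and library total), the ratio of Col4a4 to Col4a1 was 0.0158, 0.00662, 0.00386 and 0.00188 in NcstnΔKC replicates 1 to 4, against 0.101, 0.0491, 0.0172 and 0.0282 in normal replicates 1 to 4.

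Markers of cell types that hold these membranes were counted in the same way, beside the 22.7% of all genes called lower. Skeletal muscle markers were lower in 9 of 9, adipocyte markers in 6 of 8, Schwann cell markers in 2 of 6 and pericyte or smooth muscle markers in 5 of 7. Hair follicle and dermal papilla markers were lower in 5 of 6 tested, with a summed level of 59.4 to 69.2 CPM in NcstnΔKC skin and 160.4 to 365 CPM in normal skin. Endothelial markers summed to 272 to 425 CPM in NcstnΔKC skin and 321 to 399 CPM in normal skin, with 1 higher and 2 lower of 8. Basal keratinocyte markers summed to 9578 to 13318 CPM in NcstnΔKC skin and 6477 to 8910.3 CPM in normal skin. Adipocyte markers summed to 73.6 to 481 CPM, pericyte and smooth muscle markers to 342 to 644 CPM and Schwann cell markers to 71.8 to 180.1 CPM in NcstnΔKC skin. The same sums in normal skin were 529 to 1279.5 CPM for adipocyte, 747 to 2042 CPM for pericyte and smooth muscle and 118 to 189.5 CPM for Schwann cell markers. Their part in the collagen results was not tested.

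Beaded collagens showed opposite changes in 2 neighbouring genes. Type VI microfibrils are built from α1, α2 and a further chain, which in most tissues is α3 and can be replaced by α5 or α6. Col6a5 (chr9:105856070-105960643) was at 4.2, 16.3, 30.1 and 35.1 CPM in NcstnΔKC replicates 1 to 4, against 6.38, 6.65, 6.21 and 10.3 CPM in normal replicates 1 to 4. Col6a6 (chr9:105687809-105828160), 27917 bases away on the same strand, was at 1.51, 1.09, 3.11 and 5.31 CPM in NcstnΔKC skin, against 8.81, 37.1, 16.7 and 40.9 CPM in normal skin. Every NcstnΔKC library was below every normal one for Col6a6, whereas for Col6a5 NcstnΔKC replicate 1 was the lowest of all 8 libraries. The log2 fold changes were 1.53 ± 0.55 (SE), adjusted p = 0.0488 for Col6a5 and -3.22 ± 0.62 (SE), adjusted p = 0.00373 for Col6a6. The Col6a5 call was lost when any library other than NcstnΔKC replicate 1 was left out, at an adjusted p of up to 0.121, and without NcstnΔKC replicate 1 it was 1.88 (adjusted p = 0.00164, edgeR). With basal keratinocyte scaling it was 0.77 (adjusted p = 0.207), and it did not pass with voom either (adjusted p = 0.217). The ratio of Col6a5 to Col6a6 in FPKM was 2.70, 14.5, 9.39 and 6.43 in NcstnΔKC replicates 1 to 4, against 0.704, 0.174, 0.362 and 0.244 in normal replicates 1 to 4. The groups did not overlap in this ratio, as in Col6a6 alone, whereas they overlapped in Col6a5 alone. A ratio of genes called in opposite directions restates those calls and is no further support for them.

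The common chains of type VI did not pass in the reported fit over all libraries. Col6a3 was at 233, 575, 940.2 and 978 CPM in NcstnΔKC skin, against 346, 476, 449 and 494 CPM in normal skin (log2 fold change 0.63 ± 0.39 (SE), adjusted p = 0.217, edgeR). Col6a1 was at 172, 456, 598 and 642 CPM in NcstnΔKC skin, against 426, 398, 256 and 372 CPM in normal skin (0.36 ± 0.36 (SE), adjusted p = 0.442). Col6a2 was at 122, 306, 410.2 and 464 CPM in NcstnΔKC skin, against 364, 346, 237 and 358 CPM in normal skin (-0.00 ± 0.36 (SE), adjusted p = 0.998). In all 3 genes NcstnΔKC replicate 1 was the lowest of the 8 libraries. Without it, Col6a3 gave 0.92 (adjusted p = 0.008, edgeR), Col6a1 0.64 (adjusted p = 0.0259) and Col6a2 0.28 (adjusted p = 0.268). The FPKM ratio of Col6a1 to Col6a2 was 2.62, 2.77, 2.72 and 2.57 in NcstnΔKC replicates 1 to 4, against 2.18, 2.15, 2.02 and 1.93 in normal replicates 1 to 4. The groups did not overlap in this ratio of RNA levels. It was not tested and does not measure the chains within the filament.

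Col28a1, a beaded collagen known from peripheral nerve, was at 2.94, 1.64, 5.88 and 9.94 CPM in NcstnΔKC skin, against 6.68, 8.06, 6.49 and 7.04 CPM in normal skin. Normal libraries were close to each other and lay inside the NcstnΔKC range (log2 fold change -0.46 ± 0.48 (SE), adjusted p = 0.46). Col6a4, another alternative type VI chain, had 2, 12, 23 and 18 counts in NcstnΔKC skin and 4, 5, 2 and 4 in normal skin and was too low to test.

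FACIT collagens carried the largest rise of the 33 genes tested. Col12a1 encodes type XII collagen, which bridges type I fibrils and other matrix, and Col14a1 encodes its close relative type XIV, found on mature fibrils. Col12a1 (chr9:79598991-79718831) was at 103, 640.1, 797 and 907 CPM in NcstnΔKC replicates 1 to 4, against 119.5, 185, 118 and 118 CPM in normal replicates 1 to 4. NcstnΔKC replicate 1 lay below the normal range, and the other 3 NcstnΔKC libraries were above it. Over 8 libraries the log2 fold change was 2.18 ± 0.55 (SE), adjusted p = 0.0119, and without NcstnΔKC replicate 1 it was 2.54 (adjusted p = 0.000121, edgeR). Within the Xist classes it was 2.89 with Xist (adjusted p = 0.000116, edgeR) and 1.29 without (adjusted p = 0.38). NcstnΔKC replicate 1 is 1 of the 2 NcstnΔKC libraries without Xist.

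Col14a1 (chr15:55307750-55520803) went the opposite way, at 6.55, 34.2, 33 and 27.7 CPM in NcstnΔKC replicates 1 to 4, against 74.7, 99.8, 87.8 and 124 CPM in normal replicates 1 to 4. Every NcstnΔKC library was below every normal one (log2 fold change -1.93 ± 0.44 (SE), adjusted p = 0.00762, edgeR). The FPKM ratio of Col12a1 to Col14a1 was 8.31, 9.85, 12.7 and 17.2 in NcstnΔKC replicates 1 to 4, against 0.841, 0.976, 0.707 and 0.499 in normal replicates 1 to 4. It averaged 12.0 ± 3.92 in NcstnΔKC and 0.756 ± 0.204 in normal skin (SD, n = 4 each). NcstnΔKC replicate 1, where both genes were low, kept the ratio of its group. Col12a1 had been called higher and Col14a1 lower in these libraries, so the separation of this ratio restates those calls.

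**Figure D5:**
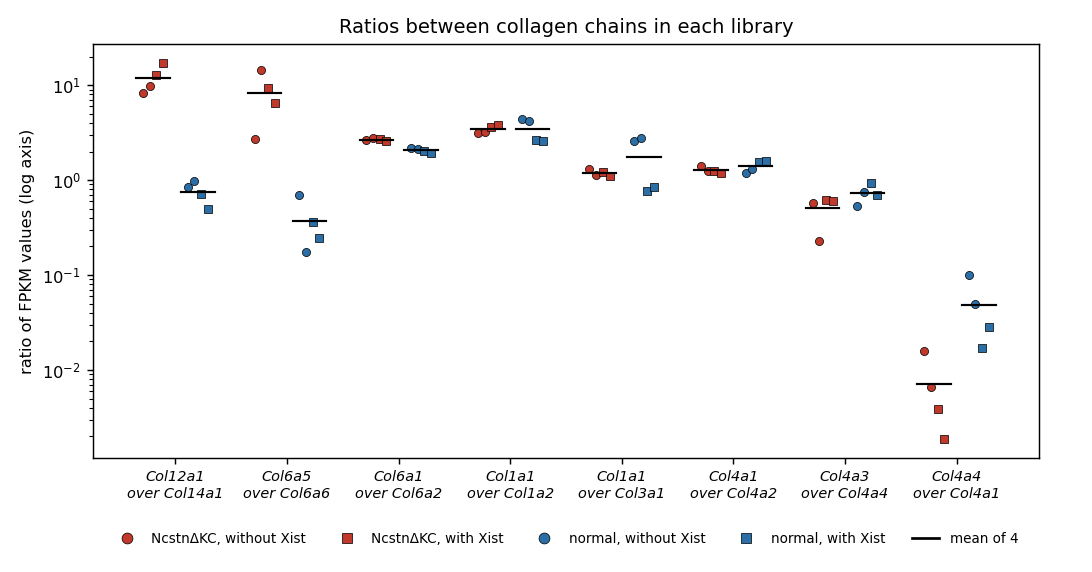
FPKM ratios between pairs of collagen genes (log axis) in each library, NcstnΔKC in red on the left and normal in blue on the right of each pair, circles without Xist and squares with Xist. The groups separate fully for Col12a1 over Col14a1, Col6a5 over Col6a6, Col6a1 over Col6a2 and Col4a4 over Col4a1, and overlap for Col1a1 over Col1a2. Col14a1, Col6a6 and Col4a4 separate the groups on their own as well.

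Col16a1, a FACIT collagen found in the dermis near the epidermal junction, was at 59.4, 68.3, 75.7 and 80.5 CPM in NcstnΔKC skin, against 115, 151, 84.8 and 113 CPM in normal skin. The groups did not overlap, although the change was small (log2 fold change -0.71 ± 0.18 (SE), adjusted p = 0.0131, edgeR). With scaling by fibroblast markers, which put the median of all genes at 0.73, it was 0.04 (adjusted p = 0.855). Within the Xist classes Col16a1 gave -0.30 with Xist (adjusted p = 0.164, edgeR) and -1.06 without (adjusted p = 0.111). Col20a1, a FACIT gene of low level, was at 3.44, 1.84, 2.28 and 3.36 CPM in NcstnΔKC skin, against 7.29, 4.23, 9.46 and 8.60 CPM in normal skin, also without overlap (log2 fold change -1.44 ± 0.32 (SE), adjusted p = 0.00679), and at -0.68 (adjusted p = 0.0934, edgeR) with fibroblast marker scaling. Its coordinates in the files differ from those in GENCODE M21.

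The other 5 FACIT genes were too low to test. Col22a1, of tissue junctions such as muscle to tendon, had 2, 3, 2 and 5 counts in NcstnΔKC replicates 1 to 4, against 1, 21, 13 and 37 counts in normal replicates 1 to 4. Col9a3, a cartilage chain, had 8, 7, 9 and 9 counts in NcstnΔKC skin, against 10, 13, 6 and 4 in normal skin. Col19a1, known from muscle and brain, had 4, 3, 2 and 2 counts in NcstnΔKC skin, against 10, 8, 9 and 8 in normal skin, with no overlap in CPM. Col9a1 and Col9a2 had at most 3 counts in any library.

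Among the 7 genes outside these classes, Col23a1 rose and Col8a2 and Col13a1 fell. Col23a1 encodes a membrane-spanning collagen made by keratinocytes, and was at 37.4, 65.8, 86.6 and 87.4 CPM in NcstnΔKC replicates 1 to 4, against 35.2, 28.8, 38.7 and 50.8 CPM in normal replicates 1 to 4. NcstnΔKC replicate 1 lay inside the normal range (log2 fold change 0.85 ± 0.28 (SE), adjusted p = 0.0353, edgeR). The call was lost without any 1 of NcstnΔKC replicates 2, 3 and 4 or normal replicates 1, 2 and 3, at an adjusted p of up to 0.0902, and scaling by basal keratinocyte genes gave 0.13.

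Col8a2, which with Col8a1 forms the short-chain network of type VIII around vessels and in the cornea, was at 2.77, 0.615, 1.73 and 1.88 CPM in NcstnΔKC skin, against 10.2, 8.06, 5.08 and 8.08 CPM in normal skin. The groups did not overlap (log2 fold change -2.17 ± 0.42 (SE), adjusted p = 0.0037). Col8a1 was at 2.85, 9.84, 3.18 and 2.82 CPM in NcstnΔKC skin, against 6.53, 6.85, 5.93 and 7.30 CPM in normal skin. It did not pass (-0.51 ± 0.43 (SE), adjusted p = 0.361), although without NcstnΔKC replicate 2, the highest library, its edgeR adjusted p was 0.00635. Col13a1, a membrane-spanning collagen of muscle and nerve junctions, was at 1.76, 0.683, 1.45 and 1.61 CPM in NcstnΔKC skin, against 4.4, 3.63, 1.27 and 4.30 CPM in normal skin (log2 fold change -1.30 ± 0.44 (SE), adjusted p = 0.0393, edgeR). Its call was lost without any 1 of NcstnΔKC replicates 2, 3 and 4 or normal replicates 1, 2 and 4. The adjusted p then reached up to 0.118 (edgeR). With fibroblast marker scaling the call was lost as well, at -0.53 (adjusted p = 0.298). Within the Xist classes Col13a1 gave -0.84 with Xist (adjusted p = 0.256, edgeR) and -1.72 without (adjusted p = 0.187). Col25a1, membrane-spanning and known from neurons, had 9, 18, 41 and 59 counts in NcstnΔKC skin, against 4, 2, 6 and 7 in normal skin. Col26a1 had 2, 4, 4 and 0 counts in NcstnΔKC skin, against 1, 0, 5 and 3 in normal skin, and Col10a1 had at most 2 counts in any library. None of these 3 was tested.

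NcstnΔKC replicate 1 stood low in many collagen genes. It was the lowest of its group in 19 of the 33 tested (57.6%) and the highest in 8 (24.2%), whereas over all genes tested it was lowest in 37.7% and highest in 40.8%. Macrophage markers were low there too, at 490.0, 2706, 3048 and 3546 summed CPM in NcstnΔKC replicates 1 to 4, against 549.7, 651, 580.4 and 935 in normal replicates 1 to 4. The part of macrophage RNA in the collagen values was not tested. Without NcstnΔKC replicate 1, 8 collagen genes were called higher and 13 lower by edgeR, of 35 tested. That fit called 3870 genes of any kind higher and 4124 lower of 15843, beside 3360 and 3555 of 15684 with all libraries.

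Per length, Col1a1 led in both groups with 443 ± 197 FPKM in NcstnΔKC and 1030.5 ± 1074 FPKM in normal skin (SD, n = 4 each). Col3a1 was second, at 379 ± 179 FPKM in NcstnΔKC and 431 ± 356 FPKM in normal skin. Within libraries, the ratio of Col1a1 to Col3a1 was 1.30, 1.13, 1.22 and 1.12 in NcstnΔKC replicates 1 to 4, against 2.56, 2.77, 0.766 and 0.855 in normal replicates 1 to 4. Col1a1 was thus above Col3a1 in every NcstnΔKC library, and in normal skin above it in replicates 1 and 2 and below it in replicates 3 and 4. Col12a1 was 10th of the 43 genes in NcstnΔKC skin and 17th in normal skin by mean FPKM, and Col4a3 was 34th in NcstnΔKC skin and 25th in normal skin. The ratio of Col1a1 to Col1a2 was 3.12, 3.19, 3.67 and 3.78 in NcstnΔKC replicates 1 to 4, against 4.39, 4.22, 2.64 and 2.57 in normal replicates 1 to 4. All NcstnΔKC values lay between the high and the low normal pair, which are the same pairs as for Col1a1 itself.

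Genes that make, join, bind and cut collagen were counted from lists. Of 29 genes of collagen synthesis and processing tested, 6 were higher and 5 lower in NcstnΔKC skin, and the 37.9% called lie below the 44.1% of all genes. P4hb, the shared subunit of prolyl hydroxylase, was at 362 to 429 CPM in NcstnΔKC skin and 183 to 235 CPM in normal skin (log2 fold change 0.95 ± 0.12 (SE), adjusted p = 0.000603, edgeR). Plod3, a lysyl hydroxylase that also adds sugars, was at 44.3 to 81.4 CPM in NcstnΔKC skin and 20.8 to 32.8 CPM in normal skin (1.41 ± 0.23 (SE), adjusted p = 0.00171). Bmp1, which removes the end of procollagen, gave 0.90 ± 0.19 (SE), adjusted p = 0.00493. Creb3l1, a membrane-bound transcription factor known to act on type I collagen genes in bone, was at 9.82, 15.2, 15.6 and 18.5 CPM in NcstnΔKC replicates 1 to 4, against 78.7, 114, 39.2 and 36.0 CPM in normal replicates 1 to 4. It was lower with no overlap (-2.17 ± 0.39 (SE), adjusted p = 0.00268), and in normal skin replicates 1 and 2 were again above replicates 3 and 4.

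Crosslinking enzymes, the lysyl oxidases and the transglutaminase Tgm2, had 2 higher and 0 lower of 6. The 33.3% called were all higher, beside 44.1% of all genes called in either direction and 21.4% called higher. Lox was at 136, 158, 175 and 197 CPM in NcstnΔKC replicates 1 to 4, against 79.1, 102, 19.1 and 28.7 CPM in normal replicates 1 to 4 (log2 fold change 1.54 ± 0.48 (SE), adjusted p = 0.0271, edgeR), and Loxl1 gave 1.11 ± 0.28 (SE), adjusted p = 0.0118. Loxl2 and Loxl4 did not pass, at -0.73 ± 0.32 (SE), adjusted p = 0.0889 for Loxl2 and 1.21 ± 0.58 (SE), adjusted p = 0.119 for Loxl4. Normal replicates 3 and 4 were the lowest in Lox, as in Col1a1.

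Small leucine-rich proteoglycans, which sit on collagen fibrils and space them, were mostly lower, with 1 higher and 8 lower of 11, beside the 21.4% and 22.7% of all genes. Ogn, osteoglycin, was at 11.4 to 14.2 CPM in NcstnΔKC skin and 73.5 to 131 CPM in normal skin (log2 fold change -3.22 ± 0.21 (SE), adjusted p = 6.08e-05, edgeR). Ecm2 was at 9.74 to 13.7 CPM in NcstnΔKC skin and 46.9 to 96.4 CPM in normal skin (-2.68 ± 0.25 (SE), adjusted p = 0.000158). Keratocan, Kera, gave -4.04 ± 0.57 (SE), adjusted p = 0.00086, and osteomodulin, Omd, gave -1.42 ± 0.30 (SE), adjusted p = 0.00525. The others that fell were Prelp, Dcn, Podn and Fmod, and the one that rose was Bgn, at 0.61, or -0.13 with scaling by basal keratinocyte genes.

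Collagen receptors had 2 higher and 0 lower of 10. The 20.0% called were all higher, beside 44.1% of all genes called in either direction and 21.4% called higher. Itgb1, the β1 integrin shared by the collagen-binding integrins, was at 346 to 496 CPM in NcstnΔKC skin and 201 to 216 CPM in normal skin (log2 fold change 1.12 ± 0.14 (SE), adjusted p = 0.000486, edgeR), and its partner Itga2 gave 0.80 ± 0.27 (SE), adjusted p = 0.0405. Adgrg1 and the kinase receptor Ddr2 did not pass, at 0.54 ± 0.25 (SE), adjusted p = 0.108 for Adgrg1 and -0.42 ± 0.23 (SE), adjusted p = 0.164 for Ddr2.

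Among collagen-degrading proteases, 3 were higher and 0 lower of 9. The 33.3% called were all higher, beside 44.1% of all genes called in either direction and 21.4% called higher. Mmp13, the main interstitial collagenase of mice, was at 6.21, 68.1, 214 and 249 CPM in NcstnΔKC replicates 1 to 4, against 0.456, 0.806, 0 and 0.391 CPM in normal replicates 1 to 4 (log2 fold change 8.41 ± 1.31 (SE), adjusted p = 0.0014, edgeR). Normal replicate 3 had 0 counts of it. Mmp8, the neutrophil collagenase, was at 4.45, 24.3, 34.4 and 46.5 CPM in NcstnΔKC skin, against 0, 0.202, 0.282 and 0.261 CPM in normal skin (7.09 ± 0.91 (SE), adjusted p = 0.000594). Mmp9, a gelatinase, gave 3.08 ± 0.69 (SE), adjusted p = 0.00724, and the fibroblast protease Fap did not pass, at -1.0 ± 0.39 (SE), adjusted p = 0.0635. Neutrophil markers rose with them, at 81.6 to 281 summed CPM in NcstnΔKC skin and 4.71 to 13.4 in normal skin, 4 of 4 tested higher, and their part was not tested.

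Basement membrane partners of the collagens had 5 higher and 3 lower of 16, and the 50% called are close to the 44.1% of all genes. Lamb3, which encodes the β3 laminin chain beneath the epidermis, was at 193 to 251 CPM in NcstnΔKC skin and 56.9 to 119.8 CPM in normal skin (log2 fold change 1.32 ± 0.23 (SE), adjusted p = 0.00211, edgeR). Lama5, the α5 laminin chain, gave 1.15 ± 0.16 (SE), adjusted p = 0.000839 and the proteoglycan agrin, Agrn, 0.64 ± 0.12 (SE), adjusted p = 0.00319, and for Agrn basal keratinocyte scaling gave -0.05. Lama3, the α3 laminin chain, was also higher. Nid2, Lamc1 and Lamb2 were lower, although Lamc1 was at 0.25 and Lamb2 at 0.34 with scaling by fibroblast markers.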

How the data were processed

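RNA sequencing of total RNA from skin was deposited as 1 table with a count and an FPKM value per Ensembl gene and library. The authors deposited raw whole-number counts; TopHat2 2.0.9, TopHat and HTSeq are named, without settings, per the submitters' processing notes, which list the builds mm10 and hg38. The deposited FPKM values, scaled by the authors, divided by the count per library total, gave 1 fixed factor a gene to within 1% in all 13398 genes with at least 50 counts. Of the 43 collagen genes, 41 have the same coordinates in GENCODE M21 (GRCm38), and 13 share exon bases with another annotated gene, at most 6.07% of them (Col9a3), so reads there are uncertain.

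Members and lists were chosen with earlier results of these data known. Libraries were grouped by their labels. Genes were filtered with filterByExpr, scaled by TMM and compared with edgeR 4.0.16 (quasi-likelihood, robust, two-sided, R 4.3.3), with Benjamini-Hochberg adjustment over 15684 genes and a threshold of 0.05. CPM were computed from the TMM-scaled library sizes. The fit was tested on simulated data. Values in every library are given for the 6 most abundant members of each class and for any other member that passed the threshold, and the 4 members with the lowest p of each companion list are named, except 1 gene that is not reported here; the few others named beside a count were chosen after their values were seen. In the marker lists Cnmd was not matched, and members too low to test were left out. Replicate numbers were not taken as pairs. Alternatives used limma 3.58.1 (voom, and trend on log2 FPKM with 1 or 0.1 added) and DESeq2 1.42.0, and left out each library in turn. Tables, sequences and plots used Python 3.11.15, pandas 2.3.3, numpy 2.4.6 and matplotlib 3.10.9. Total counts of 5835422 to 12893174 per library limit the precision of genes with a few counts, and 10 members were too low to test.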

Additional observations from a re-analysis of the deposited data

Results flagged for a closer look

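In 66 groups of 4 values (33 genes in 2 groups), a library far from the other 3 by Dixon's criterion was found 7 times; chance gives about 1 in 20. In NcstnΔKC skin these were Col11a1 at 6.01 CPM in replicate 2 (others 2.28 to 2.77), Col11a2 at 9.23 CPM in replicate 1 (2.21 to 2.89), Col4a6 at 26.5 CPM in replicate 1 (10.0 to 12.8) and Col8a1 at 9.84 CPM in replicate 2 (2.82 to 3.18). In normal skin they were Col6a2 at 237 CPM in replicate 3 (346 to 364), Col6a5 at 10.3 CPM in replicate 4 (6.21 to 6.65) and Col12a1 at 185 CPM in replicate 2 (118 to 119.5).

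The group difference had opposite signs with and without Xist, without overlap in either class, in 6 genes. The interaction in edgeR, as the log2 fold change with Xist minus that without, was 5.11 ± 0.58 (SE) for Col1a1, 4.15 ± 0.54 for Col1a2, 3.41 ± 0.61 for Col3a1, 2.03 ± 0.43 for Col5a2, 2.03 ± 0.56 for Col5a1 and 1.28 ± 0.58 for Col6a2. The adjusted p was 0.102 for Col1a1, 0.225 for Col1a2, 0.405 for Col3a1, 0.596 for Col5a2, 0.777 for Col5a1 and 0.836 for Col6a2, so the difference passed the threshold for none of the 6 in that edgeR test.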

How the results depend on the processing

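Of 16 collagen genes called, 11 kept their call and direction when each library was left out in turn. Those whose call depended on single libraries were Col24a1, Col18a1, Col6a5, Col23a1 and Col13a1. With libraries left out, 2 to 8 collagen genes were higher and 10 to 13 lower, and 7 genes kept their call in all alternatives except the libraries without Xist alone: Col12a1, Col14a1, Col15a1, Col4a3, Col4a4, Col6a6 and Col8a2. The replicate block gave 3 higher and 12 lower collagen genes, and put Col1a1 at -0.46. Deviations of same-numbered libraries correlated at -0.018, -0.032, -0.013 and 0.218, and not every library correlated best with its own number, so the numbers were not taken as pairs. Collagen genes called higher were 5 in the reported fit, 2 with upper-quartile scaling, 1 with basal keratinocyte genes, 8 with fibroblast markers, 3 with voom, 2 at a log2 change of at least 1, 14 with Xist alone, 0 without Xist alone and 9 without NcstnΔKC replicate 1 and normal replicate 2. Those called lower were 11 in the reported fit, 19 with basal keratinocyte genes, 6 with fibroblast markers, 14 with Xist alone and 0 without Xist alone. Over all genes, 3360 higher and 3555 lower became 5323 and 2224 with total counts, 716 and 7438 with basal keratinocyte genes, 8386 and 1195 with fibroblast markers, 5351 and 2115 with log2(FPKM + 1), 5315 and 2122 with log2(FPKM + 0.1), 1597 and 2306 at a log2 change of at least 1, and 3 and 1 without Xist alone. The share of higher calls among all genes was 48.6% in the reported fit, 70.5% with total counts, 8.78% with basal keratinocyte genes and 87.5% with fibroblast markers, which put the median log2 change at 0.29, -0.70 and 0.73 in that order. On the log2(FPKM + 1) scale Col1a1 was at -0.17 and Col1a2 at -0.20. Requiring at least 1 CPM in 4 libraries kept the same number of genes. With Xist alone the sign reversed for Col1a1 (2.15), Col3a1 (1.63), Col1a2 (1.63), Col28a1 (0.26), Col4a2 (0.27) and Col6a2 (0.59). Without Xist alone it did so for Col5a1 (-0.81), Col5a2 (-0.67), Col6a1 (-0.39) and Col6a3 (-0.022). With basal keratinocyte genes it did so for Col18a1 (-0.056), Col5a1 (-0.55), Col5a2 (-0.46), Col6a1 (-0.38) and Col6a3 (-0.14). With fibroblast markers it did so for Col16a1 (0.045), Col27a1 (0.17), Col28a1 (0.27), Col3a1 (0.19), Col4a1 (0.37), Col4a2 (0.53), Col5a3 (0.068), Col6a2 (0.74) and Col8a1 (0.28). Col3a1 was at 0.14 on both FPKM scales and 0.12 without NcstnΔKC replicate 1 and normal replicate 2. Col4a2 was at 0.11 with total counts, 0.089 with log2(FPKM + 1), 0.090 with log2(FPKM + 0.1), 0.040 without those 2 libraries, and from -0.37 to 0.032 with single libraries left out, above 0 without normal replicate 2. Col6a2, at -0.00 in the reported fit, was at 0.011 with DESeq2 size factors and with the Wald test, 0.33 with total counts, 0.023 without muscle, mitochondrial and rRNA-linked genes, 0.18 on both FPKM scales, 0.14 with no filter and 0.30 without those 2 libraries, and from -0.21 to 0.28 with single libraries left out, above 0 without NcstnΔKC replicate 1 or 2 or normal replicate 1, 2 or 4. Of these, Col18a1 and Col16a1 had been called; for the scaling alternatives the shift of the median above is part of the change, and for the others the cause was not tested. Genes with fewer than about 10 counts a library are limited by depth.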
